A study of Danio rerio with 3 samples.

Results

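The B-type plexins are transmembrane receptors for semaphorins, and the zebrafish genome holds duplicated copies of several of them. Expression of *plxnb1a*, *plxnb1b*, *plxnb2a*, *plxnb2b* and *plxnb3* was followed across every cell type of the lesioned larval trunk, in single-cell RNA sequencing (scRNA-seq) with and without disruption of the ligand gene *sema4ab*. The members were taken by gene symbol and are 5 of the 32521 genes in the count matrices. All 5 symbols were found. *plxnb1a* (ENSDARG00000075821), *plxnb1b* (ENSDARG00000017211), *plxnb2b* (ENSDARG00000036985) and *plxnb3* (ENSDARG00000032990) have 1 row each, and *plxnb2a* has 2 rows (ENSDARG00000094799 and ENSDARG00000003811) that were summed. The members' unique molecular identifiers (UMIs, which count captured RNA molecules) in the kept cells ran from 3074 for *plxnb2b* to 27499 for *plxnb2a*.

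Plexins bind semaphorins through an extracellular sema domain and carry a GTPase-activating domain inside the cell, through which they act on small GTPases and on the cytoskeleton. The B class binds mainly class 4 semaphorins, pairs with the receptor tyrosine kinases Met and ErbB2, and differs from other plexins by a C-terminal motif that recruits guanine nucleotide exchange factors for RhoA. In mammals, plexin-B1 is the high-affinity receptor of SEMA4D, plexin-B2 acts in closure of the neural tube and in neuroblast migration, and plexin-B3 binds SEMA5A. In the nervous system these receptors are best known from axon guidance, myelinating glia and neural progenitors.

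The methods list wild-type (AB) and several transgenic lines, without saying which was sequenced. Embryos were injected as zygotes with Cas9 and either a highly active guide (haCR) against *sema4ab*, which gives mosaic somatic mutants (gSema4ab), or a control guide RNA (gControl). In both groups the spinal cord was cut at 3 days post-fertilization (dpf), and 3 somites on either side of the lesion were collected at 4 dpf, which is 24 h after the lesion, from 50 larvae per sample. Viable, propidium iodide-negative cells were sorted and encapsulated (the deposited design text also names GFP-positive cells, whereas the methods do not). There are 3 libraries, gSema4abR1, gSema4abR2 and gControl, and the gSema4ab libraries are technical repeats. Each condition is therefore 1 sample, and no test between conditions is possible. All intervals given are 95% intervals that cover counting error only.

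The *sema4ab* guide that makes the contrast between groups is shown first, inside the reference stretch that the study lists for its target site. Capitals mark the guide match and the CGG that follows it, the motif that Cas9 needs beside its target.

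sema4ab target: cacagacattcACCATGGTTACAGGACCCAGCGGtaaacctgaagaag

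The study also designed guides against 4 of the 5 plexins for other experiments. They were not injected into the larvae sequenced here, where every plexin locus was left uncut by design. They are shown because they name the sites at which these receptors can be disrupted, with the last 10 bases of each listed guide in capitals.

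plxnb1a guide: ggcagaactgCCCTCAGGCT
plxnb1b guide: caccatactgTGTTGCTGCG
plxnb2a guide: acctcccggctTGTCCTCAAG
plxnb2b guide: ggaccacgctGGCCGGCTGC

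The libraries held 12079, 11940 and 12247 kept cells (gSema4abR1, gSema4abR2 and gControl) with medians of 6495, 6730.5 and 7200 UMIs per cell. Between 34 and 44 cell barcodes were shared by any pair of libraries. Clustering gave 47 clusters, of which 40 were named from marker lists (31600 of 36266 cells). The names end in "-like", and 20 named classes held at least 50 cells. Cells of the red blood cell-like class (1803, 1629 and 1748 cells) were used as the background level from free RNA. The oligodendrocyte-like class (136, 138 and 129 cells) carried the myelin genes *mbpa* (18399 and 20912 counts per 1000000 UMIs, CPM, in the gSema4ab libraries and 19936 CPM in gControl), *mbpb*, *cldnk* and *plp1a*. Its cells had 0, 0 and 0 UMIs of *olig1* and 0, 0 and 1 UMI of *olig2*, the transcription factors that define oligodendrocytes, and they carried *foxd3*, a neural crest factor, at 176, 116 and 175 CPM. *myrf*, also on the oligodendrocyte list, had 4, 0 and 1 UMIs (10.6, 0 and 2.46 CPM), below the 19.6, 20.3 and 25.6 CPM of all other cells. *mpz*, a myelin gene on the same list, had 98.4, 5.29 and 9.84 CPM. In the neural crest glia-like class it was higher, at 461, 74.6 and 343 CPM. *olig2* was instead found at 157, 56.5 and 50.6 CPM in the neural crest glia-like class, whose larger cluster also had the myelin genes *mag* and *cldnk* among its leading genes. Both classes carried *sox10*, at 769, 780 and 667 CPM in the oligodendrocyte-like class and 605, 586 and 501 CPM in the neural crest glia-like class. *erbb3b*, on the neural crest glia list, had 101, 114 and 128 CPM in the first class and 340, 378 and 514 CPM in the second. "Oligodendrocyte-like" therefore means here *sox10*-positive cells rich in the myelin genes *mbpa*, *mbpb*, *cldnk* and *plp1a*. "Neural crest glia-like" means *sox10*-positive glia with more *foxd3* (757, 875 and 989 CPM). The border between the 2 classes moved with the clustering.

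Over all cells of the lesion site, every B-type plexin was lower in both gSema4ab libraries than in gControl. *plxnb3* differed most, followed by *plxnb2b* and *plxnb2a*. The median of all 25068 genes with at least 20 UMIs was itself at a log2 ratio of −0.22, so values are read against that shift. *sema4ab*, the targeted gene, had 28.999 and 30.5 CPM in the gSema4ab libraries against 51.4 CPM in gControl (log2 ratio −0.79, interval −0.84 to −0.74).

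*plxnb3*, the receptor whose mammalian counterpart binds SEMA5A, had 14.7 CPM in gSema4abR1 and 17.0 CPM in gSema4abR2, against 28.4 CPM in gControl. Its log2 ratio of the mean of the repeats to gControl was −0.84 (interval −0.91 to −0.77), with −0.95 and −0.74 for the separate repeats. *plxnb2b* had 7.62 and 7.12 CPM in the gSema4ab libraries and 11.4 CPM in gControl, a log2 ratio of −0.62 (interval −0.73 to −0.52). For both genes the repeats lay well below gControl. Those of *plxnb2b* were close together, whereas those of *plxnb3* lay further apart, with a log2 ratio of 0.21 between gSema4abR2 and gSema4abR1. *plxnb2a*, the member with the most UMIs, had 67.4 and 70.9 CPM in the gSema4ab libraries and 95.6 CPM in gControl (log2 ratio −0.47, interval −0.50 to −0.43).

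The plexin-B1 pair lay closer to gControl. *plxnb1a* had 28.6 and 31.1 CPM in the gSema4ab libraries against 33.7 CPM in gControl, a log2 ratio of −0.17 (interval −0.23 to −0.12). *plxnb1b* had 18.1 and 19.99 CPM against 21.3 CPM in gControl, a log2 ratio of −0.16 (interval −0.23 to −0.09). Both ratios were closer to 0 than the median of all genes, and with scaling by edgeR's TMM factors, which brings that median to 0, they turned to 0.046 for *plxnb1a* and 0.057 for *plxnb1b*, with the repeats on either side of 0, while *plxnb2a*, *plxnb2b* and *plxnb3* stayed lower at −0.25, −0.40 and −0.62. With 2 times as many doublets removed, *plxnb1a* also turned, to 0.054. That setting left 171 of 191 and 194 of 236 notochord-like cells in the gSema4ab libraries, but 44 of 122 in gControl. The part of this uneven loss in the turn was not tested.

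Of the 5 members, 1 (*plxnb3*) was at least 1.5-fold lower in both repeats, and 0 were at least 1.5-fold higher. Of all genes, 17.1% were past the same fold lower and 2.71% past it higher, and 63.2% were lower in both repeats at any size. The median log2 ratio of the 5 members was −0.47. The *plxnb3* call was lost under TMM scaling, with log2 ratios of −0.75 in gSema4abR1 and −0.51 in gSema4abR2. Under that scaling 9.59% of all genes were past the fold lower and 5.39% past it higher. *sema4ab*, past the fold without that scaling, also fell short of it in gSema4abR2, at −0.62 and −0.52. A count of 1 in 5 without TMM scaling is near the 17.1% of all genes past the fold lower, so by this count the family does not stand out.

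**Figure D1:**
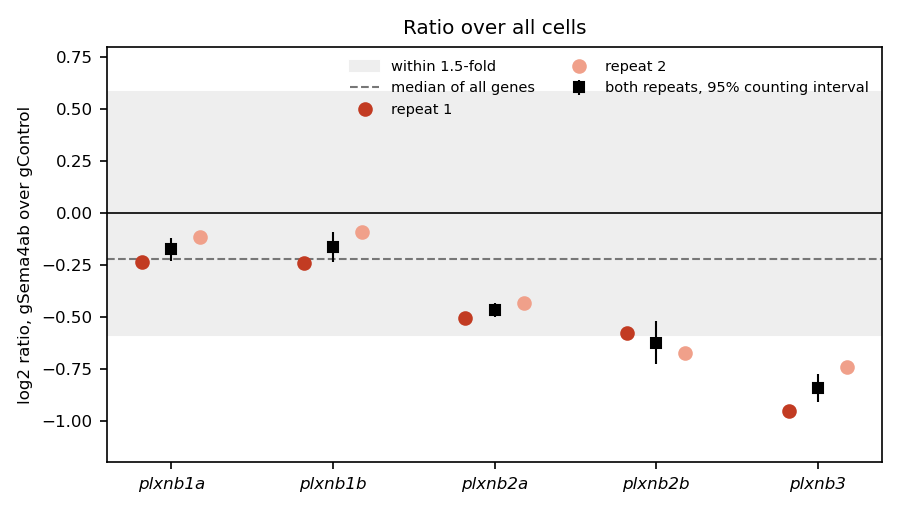
Log2 ratio (y axis) of the CPM over all kept cells in gSema4ab to that in gControl for the 5 B-type plexins (x axis). Shown are each technical repeat, the ratio of their mean and the 95% counting interval of their summed counts. The grey band marks less than 1.5-fold and the dashed line the median of all genes at −0.22. *plxnb3* lies past the band in both repeats and *plxnb2b* in gSema4abR2 and in the mean alone. The means of *plxnb1a* and *plxnb1b* lie above the dashed line and turn to 0.046 and 0.057 under TMM scaling.

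*plxnb1a*, encoding a plexin-B1 receptor, was highest in glia and in the notochord. In the oligodendrocyte-like class it reached 468 and 521 CPM in the gSema4ab libraries and 637 CPM in gControl, and in the neural crest glia-like class 388 and 438 CPM against 575 CPM in gControl. The notochord-like class followed with 359 and 356 CPM in the gSema4ab libraries and 422 CPM in gControl. Muscle-like cells, which express the contractile genes, had 161 and 146 CPM against 208 CPM in gControl. These 4 classes ranked above almost all others in each library. The intervals of the oligodendrocyte-like and the neural crest glia-like class overlapped in every library, and those of neural crest glia and notochord overlapped in gSema4abR1 but not in gSema4abR2 or gControl. Against all other cells, the oligodendrocyte-like class stood 4.11 and 4.15 log2 units higher in the gSema4ab libraries and 4.33 higher in gControl, given here as a description because the classes were built from the same cells.

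Enteric nervous system-like cells had *plxnb1a* at 158 and 161 CPM in the gSema4ab libraries and 146 CPM in gControl, overlapping muscle in the gSema4ab libraries. In ependymo-radial glia-like cells (ERGs, the spinal progenitors), *plxnb1a* had 123 and 109 CPM against 89.3 CPM in gControl, from 44, 39 and 33 UMIs, and its place in the order did not differ from that of muscle progenitors or smooth muscle in gControl. ERGs were therefore a middle class for this gene. Red blood cell-like cells had 1.495, 1.31 and 1.54 CPM, which sets the background.

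The share of cells with at least 1 *plxnb1a* UMI was high in the same 3 classes, but not in the order of the CPM. It was 64.7% and 65.2% of oligodendrocyte-like cells in the gSema4ab libraries and 77.5% in gControl, in shallow cells (medians of 2400.5, 2453 and 2902 UMIs). In neural crest glia-like cells it was 66.2% and 71.5% against 80.0% in gControl, and in notochord-like cells 71.7% and 66.9% against 76.2% in gControl. Cells with at least 2000 UMIs were also thinned to 2000 UMIs each, and shallower cells were left out of the thinned shares. The thinned shares of oligodendrocyte-like cells were 52.7% and 61.3% in the gSema4ab libraries and 66.4% in gControl. In red blood cell-like cells (medians of 5225, 5973 and 4195.5 UMIs) it was 1.28%, 1.23% and 1.03%, or 0.412%, 0.253% and 0.367% after thinning. The oligodendrocyte-like share was thus far above background at equal depth, among cells deep enough to be thinned.

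Within classes that hold several clusters, *plxnb1a* was uneven. The notochord-like class had a cluster led by *plcl1*, *tgm2l* and *cmn* with 1122 and 824 CPM in the gSema4ab libraries and 1296 CPM in gControl, the highest level of any cluster. Its other cluster, led by the cartilage-type collagens *col2a1a* and *col9a1b*, had 210 and 207 CPM against 227 CPM in gControl. The first of these clusters was shallow, with medians of 1684, 1898 and 1563 UMIs per cell, and held 108, 150 and 77 cells. Their intervals did not overlap in any library, so 1 kind of notochord cell carried most of the signal per UMI.

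In the muscle lineage, *plxnb1a* and *plxnb2a* had opposite orders. Among muscle progenitor-like cells, the cluster led by *myog*, a factor of differentiating myoblasts, had *plxnb1a* at 101 and 109 CPM in the gSema4ab libraries and 179 CPM in gControl, and *plxnb2a* at 24.1 and 30.2 CPM against 31.8 CPM in gControl. The cluster led by *pax7a* and *myf5*, markers of earlier progenitors, had *plxnb1a* at 26.8 and 26.2 CPM against 40.1 CPM in gControl, and *plxnb2a* at 87.2 and 86.6 CPM against 148 CPM in gControl. *plxnb1a* was thus higher in the *myog* cluster and *plxnb2a* higher in the *pax7a* cluster, in all 3 libraries and with intervals that did not overlap. Differentiated muscle had the *myog*-like pattern, with *plxnb1a* at 177 and 144 CPM against 220 CPM in gControl in the fast-type cluster (*mylpfa*, *pvalb2*) and 131 and 150 CPM against 167 CPM in the slow-type cluster (*smyhc1*).

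*plxnb1b*, the paralogue of *plxnb1a*, had its highest level per UMI in ERGs. It had 224 and 324 CPM there in the gSema4ab libraries and 368 CPM in gControl, and was found in 52.9% and 45.5% of ERG-like cells against 67.9% in gControl. The next classes in gControl were lateral line-like and basal epidermis-like cells, with 63.6 and 40.4 CPM against 61.7 CPM in gControl, and 57.5 and 61.2 CPM against 60.6 CPM in gControl. ERGs were the top class in every library, and their interval did not overlap that of the next class in any of them. The class was small (51, 77 and 56 cells), and its median depth was 5782, 2592 and 5146 UMIs. Among ERG-like cells with at least 2000 UMIs, thinned to 2000, the shares were 37.0% and 54.5% in the gSema4ab libraries and 55.1% in gControl. The low own-depth share of gSema4abR2 thus came with shallow cells, which the thinned share leaves out. Doublet scores of the class were high, with medians of 0.079, 0.085 and 0.066 against library medians of 0.029, 0.033 and 0.025. With 2 times as many doublets removed, 5, 9 and 6 of its cells remained.

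The glial and axial classes that were rich in *plxnb1a* had little *plxnb1b*. Oligodendrocyte-like cells had 5.32 and 13.2 CPM against 9.84 CPM in gControl, muscle-like cells 9.26 and 11.9 CPM against 11.2 CPM, and notochord-like cells 21.4 and 19.9 CPM against 25.6 CPM. Red blood cell-like cells had 7.90, 7.43 and 7.87 CPM of *plxnb1b*. The intervals of oligodendrocyte-like and muscle-like cells reached this class-wide level, and that of notochord-like cells did not. The level was uneven, however, and in the largest globin-led cluster of red blood cell-like cells it was 0.399 and 1.66 CPM against 1.58 CPM in gControl, below the intervals of muscle-like cells in every library. In the neural crest glia-like class *plxnb1b* had 33.5 and 37.7 CPM against 46.7 CPM in gControl and overlapped the basal epidermis-like class in gControl.

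*plxnb2a*, a plexin-B2 receptor, was expressed broadly. Its highest named class was smooth muscle-like, with 209 and 197 CPM in the gSema4ab libraries and 238 CPM in gControl. Fin fold-like cells had 176 and 167 CPM against 205 CPM in gControl, and superficial epidermis-like cells 157 and 167 CPM against 182 CPM. The intervals of the first and second class overlapped in each library. An unnamed cluster led by *podxl* and *aqp1a.1* had 211 and 250 CPM against 332 CPM in gControl, above smooth muscle beyond the intervals in gSema4abR2 and gControl but not in gSema4abR1.

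Epithelia and connective tissue carried most of the *plxnb2a* message. It was found in 70.3% and 68.4% of superficial epidermis-like cells in the gSema4ab libraries and in 80.0% in gControl, and in 43.0% and 45.2% of fibroblast-like cells against 55.9% in gControl. In red blood cell-like cells the share was 1.11%, 0.859% and 1.14%. Oligodendrocyte-like cells had 13.3 and 15.9 CPM against 12.3 CPM in gControl, from 16 UMIs in all, and muscle-like cells 25.1 and 29.7 CPM against 40.1 CPM. In neural crest glia-like cells *plxnb2a* was high, at 150 and 123 CPM against 188 CPM in gControl, which set these cells apart from the oligodendrocyte-like class. The 2 rows summed as *plxnb2a* gave 17535 and 9964 UMIs and have the reference names si:dkey-183c2.5 and plxnb2a.1. In smooth muscle-like cells the first row had 134 and 140 CPM against 163 CPM in gControl, and the second 75.0 and 57.2 CPM against 74.4 CPM. There the first row was lower than gControl in both repeats and the second in gSema4abR2 alone. Whether reads were split between these 2 rows in counting could not be told from the matrices.

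*plxnb2b*, the paralogue of *plxnb2a* and the member with the fewest UMIs, had a narrower pattern. Lateral line-like cells, the mechanosensory organs of the skin, were highest at 52.6 and 42.4 CPM in the gSema4ab libraries and 98.2 CPM in gControl. Macrophage/microglia-like cells, the class that also held the most *sema4ab* (117 and 146 CPM against 306 CPM in gControl), had *plxnb2b* at 25.7 and 22.5 CPM against 37.3 CPM. ERG-like cells had 22.4 and 25.2 CPM against 43.3 CPM in gControl, from 8, 9 and 16 UMIs. Receptor and ligand messages were thus found in the same phagocyte class. In gControl the lateral line lay above the next class beyond the intervals, whereas the intervals of xanthophore-like, ERG-like and macrophage/microglia-like cells, which followed, overlapped.

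Almost no *plxnb2b* was found in the classes richest in *plxnb1a*. Oligodendrocyte-like cells had 0, 0 and 1 UMI, and muscle-like cells 1, 0 and 0 UMIs. Notochord-like cells had 0, 11 and 3 UMIs, so that the repeats themselves differed (0 and 6.83 CPM against 3.20 CPM in gControl). In red blood cell-like cells the counts were 0, 1 and 3 UMIs.

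*plxnb3* was highest in lateral line, glia and vessels. In lateral line-like cells it had 71.9 and 95.9 CPM in the gSema4ab libraries and 228 CPM in gControl. Neural crest glia-like cells had 94.6 and 98.1 CPM against 169 CPM in gControl, and endothelium-like cells 89.4 and 72.2 CPM against 144 CPM. The top class was neural crest glia in both gSema4ab libraries and lateral line in gControl, and the neighbours in that order overlapped in each case. Basal epidermis-like cells came next, at 58.6 and 62.9 CPM against 85.9 CPM in gControl. At resolution 0.5, neural crest glia was the top class in neither gSema4ab library, and the oligodendrocyte-like class had 69.2 and 74.6 CPM there. In the main clustering, oligodendrocyte-like and axial cells had little *plxnb3*. Oligodendrocyte-like cells had 0 and 10.6 CPM against 4.92 CPM in gControl, notochord-like cells 4.15 and 3.10 CPM against 2.14 CPM, and muscle-like cells 8.72 and 6.48 CPM against 10.6 CPM, beside a background of 0.837, 0.562 and 1.23 CPM in red blood cell-like cells.

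**Figure D2:**
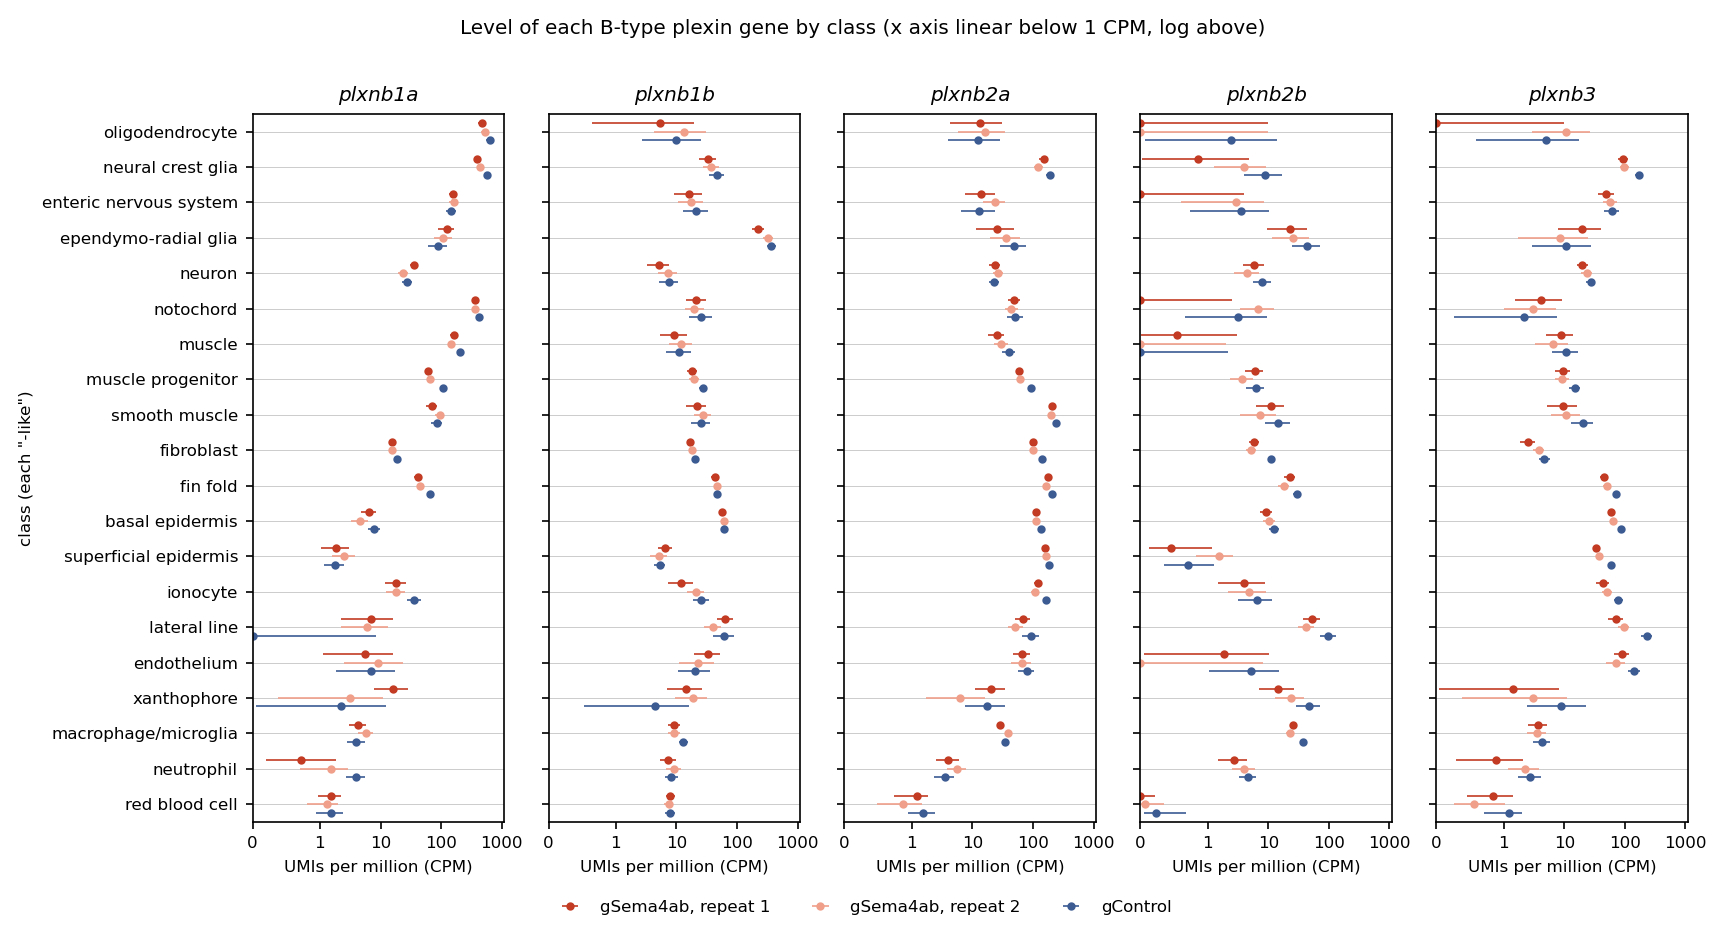
CPM of each B-type plexin (panels, symmetric log axis) in the 20 named classes of at least 50 cells (rows), for gSema4abR1, gSema4abR2 and gControl, with 95% Poisson counting intervals. *plxnb1a* peaks in oligodendrocyte-like cells (637 CPM in gControl), *plxnb1b* in ERGs (368 CPM), *plxnb2a* in smooth muscle (238 CPM), and *plxnb2b* and *plxnb3* in the lateral line of gControl (98.2 and 228 CPM).

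Levels were then compared between gSema4ab and gControl inside each class, which takes the shares of the classes out of the ratio, but not the shares of the clusters within a class. A member was compared where it had at least 20 UMIs over the 3 libraries. This held in 17 of 20 classes for *plxnb1a*, 19 for *plxnb1b*, 19 for *plxnb2a*, 13 for *plxnb2b* and 16 for *plxnb3*, or 84 pairs of gene and class. Of these, 15 pairs (17.9%) were at least 1.5-fold lower in both repeats and 1 (1.19%) at least 1.5-fold higher. Over all 241002 pairs of a gene and a named class, 13.7% were past the fold lower and 6.69% past it higher. The share of lower pairs was thus near the background, and that of higher pairs below it. At any size, 62 of the 84 pairs (73.8%) were lower and 9 higher in both repeats, beside 49.8% lower and 29.6% higher over all pairs of a gene and a named class.

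The counts were uneven among the members. *plxnb3* was past the fold lower in 7 of 16 classes (43.8%) and lower in both repeats in all 16, with a median log2 ratio of −0.68. *plxnb2b* was past it in 4 of 13 (30.8%) with a median of −0.62. *plxnb1a* had 3 of 17, *plxnb2a* 1 of 19 and *plxnb1b* 0 of 19, with medians of −0.30, −0.26 and −0.20. With TMM factors fitted within each class, 10 pairs were past the fold lower, of which 4 were *plxnb3*, 4 *plxnb2b* and 2 *plxnb1a*. The *plxnb1b* pair in xanthophore-like cells stayed past it higher. The share of all pairs of a gene and a named class was not computed under that scaling, so these counts have no background beside them. The medians under that scaling were −0.51 for *plxnb3* and −0.49 for *plxnb2b*, −0.22 for *plxnb2a*, −0.057 for *plxnb1a* and 0.0091 for *plxnb1b*. Classes of 1 library share their pool of larvae, so these pairs are not independent of each other.

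Of the 16 classes compared, the lateral line had the lowest ratio of *plxnb3*. The values above give a log2 ratio of −1.44 (interval −1.79 to −1.03; −1.66 and −1.25 for the repeats), and 44.3% and 50.0% of lateral line-like cells in the gSema4ab libraries had a *plxnb3* UMI, against 78.0% in gControl. After thinning the shares were 15.9% and 19.3% against 42.5%. *plxnb2b* in the same cells had a log2 ratio of −1.05 (interval −1.62 to −0.50). It was −0.57 and short of the fold without cells that mixed markers of several classes, which left 21, 33 and 21 cells. The class had 70, 94 and 41 cells, the median of all its genes was −0.24, and 22.8% of its genes were past the fold lower, the highest background share among the classes discussed here. Its doublet scores were high, and with 2 times as many doublets removed 47, 56 and 0 cells remained, so no ratio could be formed there.

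In neural crest glia-like cells *plxnb3* had a log2 ratio of −0.81 (interval −1.10 to −0.52) where the median of all genes was −0.11. *plxnb1a* in these cells was lower at −0.48 (interval −0.62 to −0.32), short of the fold. Myelin genes in this class differed between libraries, with *mbpb* at 1991 CPM in gSema4abR1, 403 CPM in gSema4abR2 and 994 CPM in gControl. The part of this uneven make-up in both ratios was not tested. In oligodendrocyte-like cells the ratio of *plxnb1a* was −0.36 (interval −0.60 to −0.13), in notochord-like cells −0.24 (interval −0.40 to −0.07) and in muscle-like cells −0.44 (interval −0.64 to −0.25). The medians of all genes in these 3 classes were −0.10, −0.14 and −0.15. None of the 3 ratios reached the fold.

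In ERGs, the cells in which the receptor pair is of most interest to the study, the paralogues pointed in opposite directions without either passing the fold. *plxnb1b* had a log2 ratio of −0.42 (interval −0.75 to −0.10), but the repeats gave −0.71 and −0.18. The ratio turned to 0.15 without cells that mixed markers of several classes. That setting left only 11 and 14 ERG-like cells in the gSema4ab libraries and 13 in gControl, so its sign rests on few cells. *plxnb1a* had 0.38, with an interval from −0.22 to 1.01 that includes 0. *plxnb2b* had −0.83 with an interval from −1.94 to 0.22, and is counted among the 15 pairs although its interval includes 0. With 33 to 44 UMIs of *plxnb1a* per library, a difference of under 1.5-fold was not detectable in this class.

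Muscle progenitor-like cells were the class with the most members past the fold, namely *plxnb1a* at −0.76 (interval −0.92 to −0.61), *plxnb2a* at −0.64 (interval −0.80 to −0.48) and *plxnb3* at −0.66, where the median of all genes was −0.24. Under TMM scaling all 3 fell short of the fold, at −0.48, −0.36 and −0.38. The *plxnb1a* values behind this were 59.9 and 64.6 CPM in the gSema4ab libraries and 106 CPM in gControl. The ratio held in the *myog* cluster (−0.77) for *plxnb1a* and in the *pax7a* cluster (−0.77) for *plxnb2a*, the cluster where each gene was higher. By the CPM given above, each gene was also lower in both gSema4ab libraries in the other progenitor cluster. Whether the ratios differ between these clusters was not tested.

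*plxnb2b* was past the fold in fibroblast-like cells, the largest class (2946, 2880 and 2834 cells), with 5.84 and 5.25 CPM in the gSema4ab libraries against 11.2 CPM in gControl, a log2 ratio of −1.01 (interval −1.27 to −0.75). It was lower in both repeats and past the fold in 5 of the 6 clusters of fibroblast-like cells, which share their libraries. Of all genes in the class, 16.8% were past the fold lower, and the median of all genes was −0.22. The level is low, and 3.97% and 3.85% of fibroblast-like cells had a UMI in the gSema4ab libraries against 7.41% in gControl, beside 0%, 0.0614% and 0.172% of red blood cell-like cells. In macrophage/microglia-like cells the ratio of *plxnb2b* was −0.63 (interval −0.83 to −0.42) and did not reach the fold in gSema4abR1. The repeats gave −0.54 and −0.73 there.

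The remaining pairs past the fold were *plxnb1a* in ionocyte-like cells (18.0 and 18.1 CPM against 36.2 CPM in gControl, log2 ratio −0.99), *plxnb1a* in neutrophil-like cells (−1.73), *plxnb2b* in xanthophore-like cells (−1.27), and *plxnb3* in endothelium-like (−0.82), ionocyte-like (−0.71), smooth muscle-like (−0.95) and superficial epidermis-like cells (−0.70). Under TMM scaling *plxnb3* was short of the fold in endothelium-like cells (−0.57 in gSema4abR1) and in ionocyte-like cells (−0.46 in gSema4abR2). With 2 times as many doublets removed, 40, 2 and 44 endothelium-like cells remained (gSema4abR1, gSema4abR2 and gControl), and 40, 52 and 23 ionocyte-like cells. The neutrophil value came from 0.714 and 1.55 CPM in the gSema4ab libraries and 3.99 CPM in gControl, of which the gSema4ab values lay near the red blood cell-like background. The only pair past the fold higher was *plxnb1b* in xanthophore-like cells, with 10, 12 and 2 UMIs and an interval from −0.12 to 5.03.

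**Figure D3:**
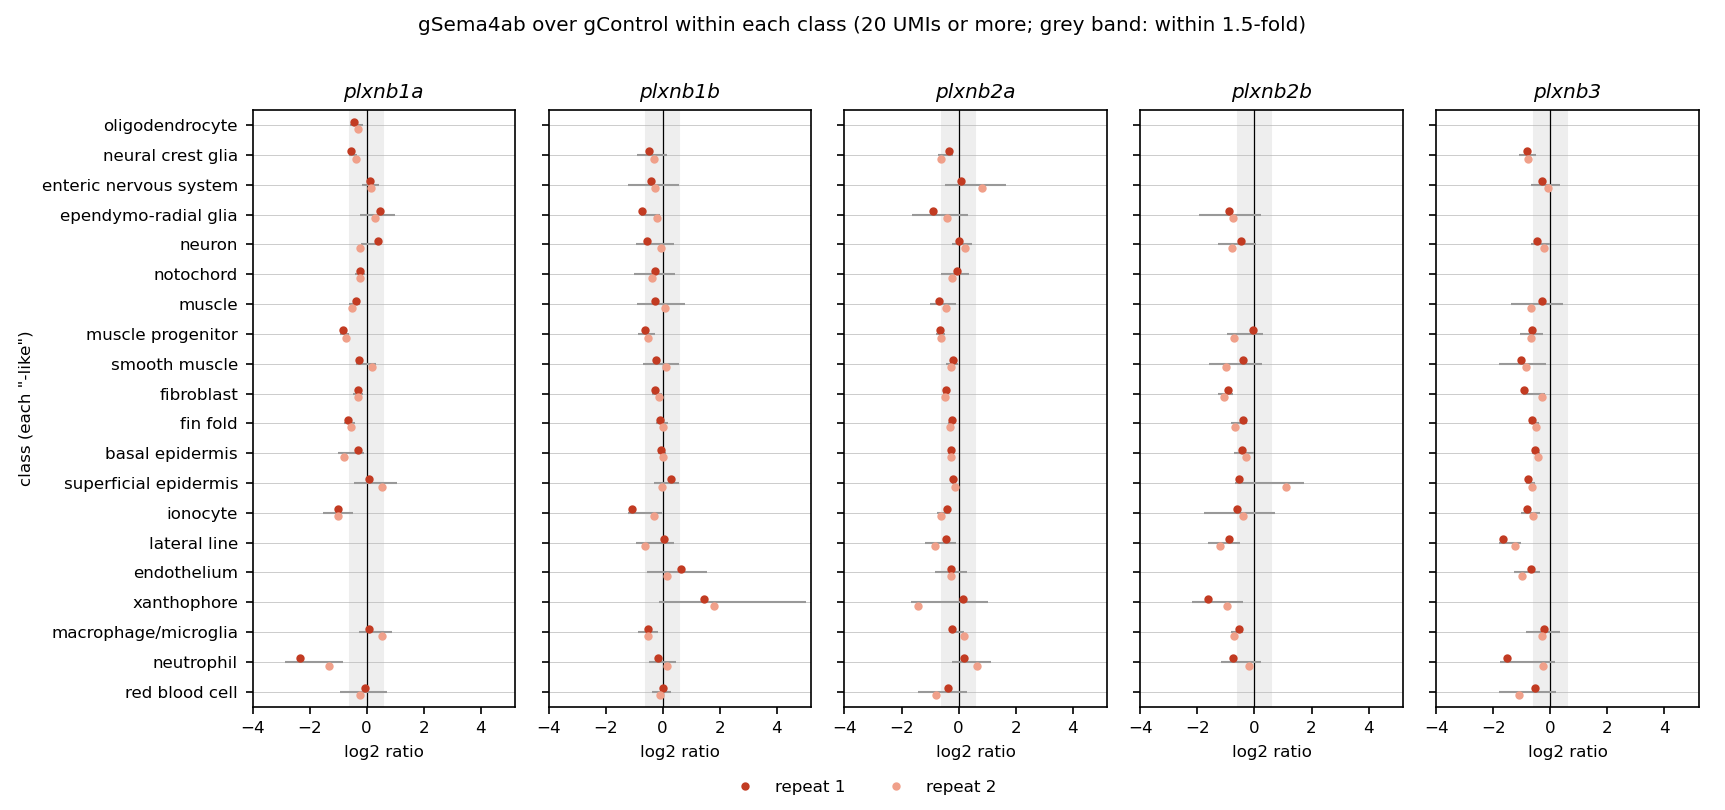
Log2 ratio (x axis) of gSema4ab to gControl within each named class (rows) for the 5 B-type plexins (panels). Shown are both technical repeats and the 95% counting interval of their summed counts. The grey band marks less than 1.5-fold. All 16 classes of *plxnb3* lie left of 0 and 7 are past the band in both repeats, whereas *plxnb1b* has 0 classes past it on the left. Under TMM scaling 15 *plxnb3* classes are lower in both repeats, without a share over all genes beside that count. The median of *plxnb1b* is then 0.0091 in place of −0.20.

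The source of each gene's UMIs depended on class size as well as level. Notochord-like cells gave 16.0% and 16.2% of all *plxnb1a* UMIs in the gSema4ab libraries and 9.54% in gControl, beside 191 and 236 notochord-like cells in the gSema4ab libraries and 122 in gControl. Muscle progenitor-like cells gave 11.1% and 10.8% against 15.3% in gControl. Fibroblast-like cells gave 28.8% and 27.6% of the *plxnb2a* UMIs against 26.1% in gControl, and macrophage/microglia-like cells 27.5% and 23.5% of those of *plxnb2b* against 24.7% in gControl. ERGs gave only 3.90% and 5.08% of *plxnb1b* UMIs against 5.19% in gControl, although they were its highest class. Basal epidermis-like cells gave 20.7% and 21.7% against 22.4% in gControl. When the class shares of gControl were used for every library, the all-cell log2 ratio of *plxnb1a* was −0.38 in place of −0.17, so the number of cells per class, which is also set by dissociation and sorting, moves with that value. Its part in the result was not tested beyond this.

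**Figure D4:**
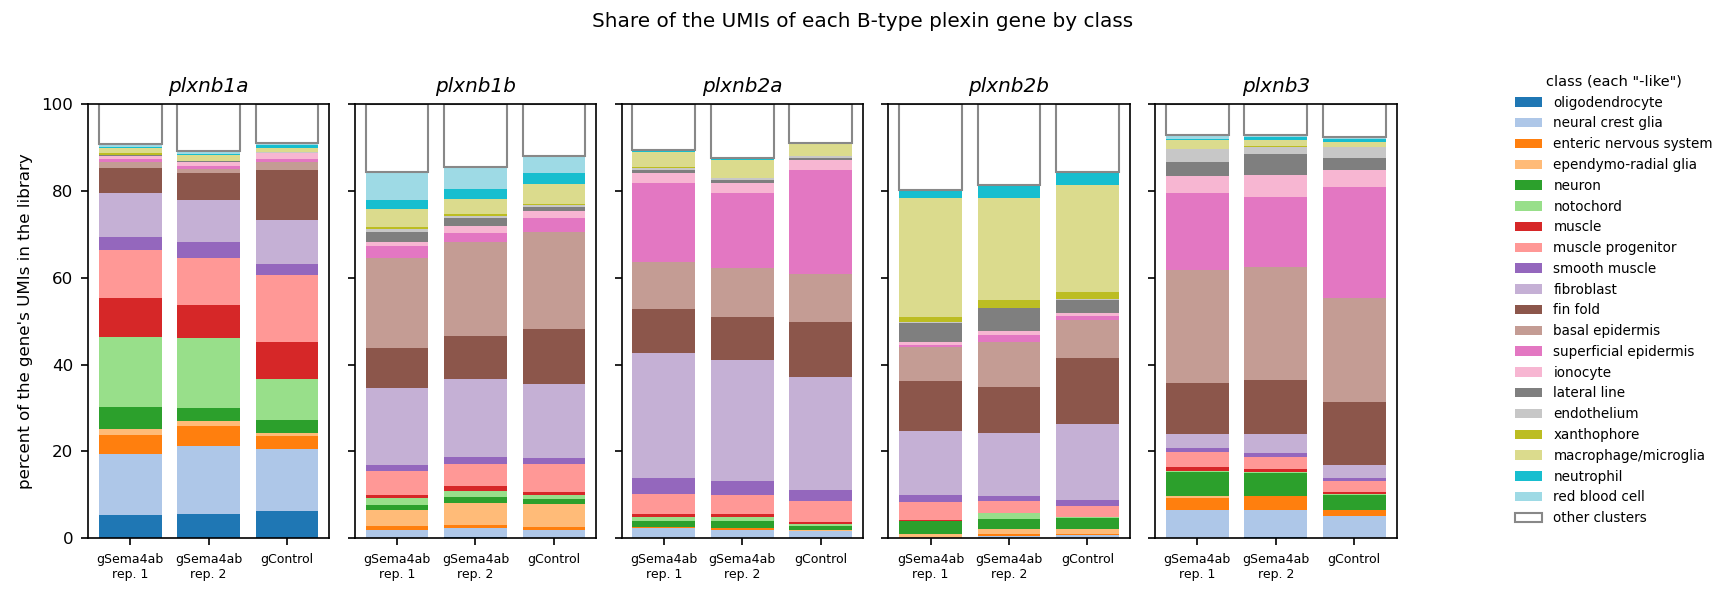
Percent of each gene's UMIs (stacked bars) that came from each class in gSema4abR1, gSema4abR2 and gControl. Notochord-like cells hold 16.0% and 16.2% of *plxnb1a* UMIs in the gSema4ab libraries and 9.54% in gControl, and ERGs at most 5.19% of *plxnb1b* UMIs in any library.

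The paralogues were also counted in the same cells. Over the 3 libraries, 22 of 184 ERG-like cells had UMIs of both *plxnb1a* and *plxnb1b*, with 51 and 100 cells having each of them, against 27.7 cells given by the product of the shares. In muscle progenitor-like cells 160 of 1650 had both, against a product of 106.9, and in fin fold-like cells 166 of 1180 against 125. For the plexin-B2 pair, 237 fin fold-like cells had both *plxnb2a* and *plxnb2b* against a product of 189, and 139 of 1877 macrophage/microglia-like cells against 115. Cells of higher depth have more of every gene, and depth was not matched in these counts. In ERG-like cells both plexin-B1 genes were present, and the count of cells with both was not above the product of the shares. With 116 *plxnb1a* UMIs in that class, many cells may lack a UMI by sampling, so the count does not say whether single ERGs express both. By in situ hybridization the study reports both messages in the same ERGs, with and without a lesion.

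Across the 20 classes, the correlation of log2 levels between members ran between −0.28 (*plxnb1a* and *plxnb2b*) and 0.56 (*plxnb2a* and *plxnb3*), as a description over classes that share libraries. The genes whose class pattern was most like that of each member, among 9879 genes that reached 50 CPM in at least 1 class, were *phldb1a* for *plxnb1a* (r = 0.84), *meig1* for *plxnb1b* (0.88), *golim4a* for *plxnb2a* (0.84), *anxa5b*, an annexin that binds phospholipids, for *plxnb2b* (0.75), and *frmd4ba*, a FERM-domain scaffold gene, for *plxnb3* (0.81). Next came *slc44a5b* (0.82) and *usp2a* (0.82) for *plxnb1a*, *cnnm2b* (0.85) and *PAMR1* (0.84) for *plxnb1b*, and *ppp1r13l* (0.82) and *ctnna1*, the α-catenin of adherens junctions (0.80), for *plxnb2a*. For *plxnb2b* they were *anxa4* (0.74) and CABZ01049847.1 (0.72), and for *plxnb3* *lnx2b* (0.79) and *SEMA4F*, itself a class 4 semaphorin (0.77).

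The other genes of the pathway were read from lists of ligands, co-receptors and intracellular partners. Of 8 class 4 semaphorins measured, 3 were past the fold lower over all cells and all 8 lower in both repeats, with a median log2 ratio of −0.47. Beside *sema4ab* these were its paralogue *sema4aa*, with 4.57 and 4.43 CPM in the gSema4ab libraries against 8.02 CPM in gControl (−0.83), and *sema4e*, with 10.16 and 11.0 CPM against 19.98 CPM (−0.92). The ligand list held the targeted gene, so its count includes 1 gene that was set by the design.

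Of 8 co-receptors, 3 were past the fold lower, 7 were lower in both repeats, and the median was −0.54. *erbb3a*, a receptor that dimerizes with ErbB2 and serves glia, had 14.0 and 14.3 CPM against 43.7 CPM in gControl (−1.63). *erbb2*, its kinase partner, had 20.4 and 20.8 CPM against 40.9 CPM (−0.99), and *nrp1b*, a neuropilin, had 14.1 and 14.4 CPM against 22.2 CPM (−0.64). The *erbb3a* difference was larger than that of any plexin.

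Of 24 intracellular partners, 4 were past the fold lower and 0 past it higher, 16 were lower and 8 higher in both repeats, and the median was −0.15, above the median of all genes. Among them were *rac1b*, a Rac GTPase (8.65 and 8.13 CPM against 13.9 CPM in gControl, −0.73), and the kinases *rock1* (34.5 and 32.6 CPM against 53.3 CPM, −0.67) and *rock2b* (22.8 and 23.1 CPM against 41.8 CPM, −0.86). Against 17.1% of all genes past the fold lower, 3 of 8, 3 of 8 and 4 of 24 genes of the lists were past it, in lists too short for the share to stand as a result about them. Apart from *sema4ab*, the listed genes were not read under TMM scaling, so calls near the fold may not hold there.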

How the data were processed

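The authors deposited counts as 10x Genomics matrices, made with Cell Ranger 7.1.0 on GRCz11 per the labels. Each value is a count of UMIs per gene and barcode, not normalized. There were 3 libraries, with total UMIs in kept cells of 113520701 (gSema4abR1), 114222593 (gSema4abR2) and 122904405 (gControl), from 14384, 14163 and 14398 barcodes.

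A barcode was kept if 200 genes or more were detected, if its UMIs numbered between 500 and 50000 with a mitochondrial part below 20%, and if it had no more than 20 UMIs for each detected gene. As doublets, the highest Scrublet scores were removed (scanpy 1.11.5, Python 3.11.15), with a doublet rate of 0.8% for each 1000 barcodes. Libraries were integrated by CCA and clustered in Seurat 5.3.0 (R 4.3.3) from 2000 variable genes, 30 dimensions and resolution 1. The members and the listed pathway genes were kept out of the variable genes, which removed 1 gene. A cluster was named where at least 3 markers of a list were detected in 10% or more of its cells and 3-fold or more above the other cells, and where its leading genes did not go against the name.

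UMIs were summed per class and library and given as CPM with exact Poisson intervals. Shares have exact Clopper-Pearson binomial intervals. Log2 ratios were formed after 0.5 UMIs were added to each count. Their exact conditional binomial intervals (scipy 1.17.1) come from the summed counts of the gSema4ab libraries and those of gControl, without added UMIs. All intervals are at 95% and for counting error only. Reads are 3′ tags, so levels were compared between classes and libraries and not between genes. A difference past the fold is at least 1.5-fold, in the same direction in both repeats, with at least 20 UMIs over the libraries. Likeness is Pearson's r of log2(CPM + 10) over classes of at least 50 cells. Named genes were the members, *sema4ab*, pathway genes past the fold (except 1 intracellular partner, which is not reported here) and the 3 genes most like each member. edgeR 4.0.16 gave TMM factors. The ratio steps were tested on simulated data. Alternatives changed doublet removal, mixed-marker cells, clustering, integration, scaling, added UMIs and repeats. The members and lists were chosen with earlier results of these data known. Guides were copied from the study's list of guides, and the *sema4ab* stretch from its reference sequence of the target site. No genome coordinates are given because no annotation of GRCz11 was used here. The listed ligand symbols *sema4d* and *sema4f* matched no row as spelled and were not in the ligand counts, although a row named *SEMA4F* was among the genes compared for likeness.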

Additional observations from a re-analysis of the deposited data

Results flagged for a closer look

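In 3 places a plexin was lower over all cells but higher in both gSema4ab repeats, past the fold or with an interval above 0. Other pairs were higher in both repeats but met neither condition. The difference between the higher and the lower direction was not tested, and over all cells the lower one turned under TMM scaling. *plxnb1b* had 70.0 and 51.3 CPM in the gSema4ab libraries against 23.3 CPM in gControl in an unnamed cluster led by *lgals2b*, *fabp6* and *krt92*, a log2 ratio of 1.37 (interval 0.54 to 2.11). *plxnb1a* in the same cluster had 29.6 and 75.8 CPM against 25.7 CPM in gControl (1.03), where the repeats themselves lay apart. That cluster held 24, 61 and 38 cells, its median depth was 11566 and 8833 UMIs in the gSema4ab libraries and 20012 UMIs in gControl, and 0, 0 and 2 of its cells remained when 2 times as many doublets were removed. *plxnb1b* in xanthophore-like cells had 14.5 and 18.6 CPM against 4.41 CPM in gControl (1.65), from 24 UMIs in all.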

How the results depend on the processing

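Counting error is not sample error: with 1 pool per condition, no setting tests the difference between conditions, and low counts (ERGs, lateral line, xanthophores) limit the within-class ratios. No paired analysis was possible because the gSema4ab numbers name technical repeats and gControl has 1 library. Each main result was compared with its value under each alternative setting, so several comparisons belong to the same result. Of the comparisons of ratios and pair counts, 128 moved little, 35 moved and 5 turned. Of those of levels and shares of cells, 36 moved little and 6 moved. The cause was not tested.

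Over all cells, the log2 ratio of *plxnb1a* was 0.054 with 2 times as many doublets removed, −0.070 without mixed-marker cells, 0.046 with TMM factors and −0.38 with the class shares of gControl, and −0.24 to −0.12 with 1 repeat left out. *plxnb1b* was at 0.057 with TMM factors and −0.27 over all barcodes, and −0.24 to −0.093 with 1 repeat left out. *plxnb2a* was at −0.63 without mixed-marker cells, −0.25 with TMM factors, −0.43 without globin genes and −0.31 with the class shares of gControl, and −0.50 to −0.43 with 1 repeat left out. *plxnb2b* was at −0.89 without mixed-marker cells and −0.40 with TMM factors. *plxnb3* was at −0.99, −0.62 and −0.64 without mixed-marker cells, with TMM factors and with the class shares of gControl, and −0.95 to −0.74 with 1 repeat left out.

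Without mixed-marker cells, which removed 22074 cells, the ratio of class to rest in gControl was 4.94 for *plxnb1a* in oligodendrocyte-like cells (4.72 with 2 times as many doublets removed), 4.48 for *plxnb1b* in ERGs, 1.80 for *plxnb2a* in smooth muscle and 3.33 for *plxnb3* in the lateral line, and the gSema4ab to gControl ratio was −0.027 for *plxnb1a* in oligodendrocyte-like cells, 0.15 for *plxnb1b* in ERGs and 0.42 for *plxnb2a* in smooth muscle. A cell counted as mixed with any UMI of a listed gene, globins included, outside the classes that gene belongs to. This left 11, 14 and 13 ERG-like cells and 24, 28 and 16 smooth muscle-like cells (gSema4abR1, gSema4abR2 and gControl). Doublet removal at the higher rate left fewer than 10 cells of the ERG-like, lateral line-like or endothelium-like class in a library, and no ratio was formed. It left 40, 52 and 23 ionocyte-like cells and 25, 86 and 23 muscle-like cells (gSema4abR1, gSema4abR2 and gControl). Of notochord-like cells it left 171, 194 and 44, in the same order.

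Of the 84 pairs of member and class, 15 were past the fold lower in both repeats, and 10 with TMM factors. Past the fold higher were 1 pair, 4 of 69 pairs with 2 times as many doublets removed, and 2 of 84 without integration. At any size, 62 pairs were lower and 9 higher in both repeats of 84 pairs, against 38 lower and 5 higher of 55 pairs without mixed-marker cells. With 1 repeat left out, only the other repeat had to pass, so no count could fall. Then 26 to 29 pairs were past the fold lower and 2 to 4 higher, and 14 to 17 were higher at any size. The share of all pairs of a gene and a named class was not computed under these alternatives.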

Other observations

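Further rows of the matrices belong to plexin-B2 genes by their reference names but carry other symbols, and were not members. ENSDARG00000079892 (plxnb2a.3) was found mainly in macrophage/microglia-like cells, with 43.7 and 43.8 CPM in the gSema4ab libraries and 30.8 CPM in gControl. It was higher there in both repeats. ENSDARG00000077090 (plxnb2a.2) had 5.53 and 5.05 CPM in lateral line-like cells of the gSema4ab libraries against 20.6 CPM in gControl, from 4, 5 and 9 UMIs.

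Red blood cell-like cells were not even in *plxnb1b*. A cluster led by *slc4a1a*, the anion exchanger of erythrocytes, and the haem-synthesis gene *hmbsb* had 12.8 and 12.3 CPM in the gSema4ab libraries and 12.8 CPM in gControl. The largest globin-led cluster had 0.399 and 1.66 CPM against 1.58 CPM in gControl. The class-wide background of *plxnb1b* is therefore set by the first of these clusters.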
